A study of Mus musculus with 12 samples.

Results

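The genes described are those for the nuclear-encoded respiratory chain and ATP synthase, as they stood in mRNA of mouse CD4+ T cells. They were taken by symbol: every row beginning with Nduf (complex I), Sdha, Sdhb, Sdhc, or Sdhd (complex II), Uqc (complex III), Cox4 to Cox8 (complex IV), or Atp5 (complex V), with no pseudogenes. The rule found 90 of 11077 genes in the table of Th17 and Th0 cells and 88 of 11056 in the table of iTreg and Th0 cells. The 2 genes listed in the Th17 table only were Cox6a2 and Cox7a1. Of the 90, 76 code for subunits (36 for complex I, 4 for complex II, 8 for complex III, 13 for complex IV, and 15 for complex V), and 14 share the name but are assembly factors or other genes, which were counted apart. Ndufa4, here under complex I by its symbol, codes for a protein of complex IV, and Atp5sl, here under complex V, for a factor in the assembly of the complex I membrane arm. None of the 13 subunits encoded in mitochondrial DNA was listed in either table. Every gene taken by the rule was above the minimum set on low values (more than 1 FPKM in at least 4 of 8 libraries), Cox6a2 mainly through its Th17 libraries.

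RNA had been sequenced from 12 cultures, 4 each of Th0, Th17, and iTreg cells. All began as naïve CD4+CD62L+ T cells from spleens of C57BL/6 mice aged 8 to 10 weeks, and all were activated for 3 d with plate-bound anti-CD3 and anti-CD28, each at 1 μg/ml. Th0 cells received no polarizing cytokine. Th17 cultures also held IL6 at 30 ng/ml, TGFb1 at 5 ng/ml, and antibodies that neutralize IL4 and IFNγ, each at 10 μg/ml, while iTreg cultures held IL2 and TGFb1, each at 10 ng/ml per the labels (the study's methods give a higher TGFb1 dose for iTreg cultures). These are populations polarized in vitro, in which every cell need not have taken the intended fate. The question here is whether polarization toward either fate changed the mRNA of the machinery of oxidative phosphorylation relative to activation alone.

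Complexes I and II feed electrons from NADH and succinate into the ubiquinone pool of the inner mitochondrial membrane. Complex III passes them to cytochrome c and complex IV to oxygen, and complexes I, III, and IV pump protons, whose return through complex V drives ATP synthesis. T cells leaving quiescence enlarge both glycolysis and mitochondrial mass, and effector and regulatory T cells are known to differ in how far they rely on respiration.

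Nuclear genes for these complexes are known to be driven through sites for NRF1, for the ETS factor GABP, and for YY1. Promoter windows from 250 bases before to 50 after the start of transcription (RefSeq, GRCm38.p6) were found for 77 of the 90 genes, as 83 windows. The NRF1 core GCATGCG, the ETS core CCGGAAG, and the YY1 core AAGATGG were searched on both strands, where matches of one core on opposite strands may overlap. At least 1 of the 3 cores stood in 47% of these windows and in 17.3% of all 32851 windows of that length. The NRF1 core was in 15.7% against 3.58%, the ETS core in 22.9% against 8.86%, and the YY1 core in 16.9% against 6.34%. The cores are short and a match is no proof of a site. The windows of 4 subunit genes that differed between cultures are shown, since the results below turn on them: Cox7a1 (chr7:30183921-30184220, plus strand) and Cox8a (chr19:7217567-7217866, minus strand), called in Th17 cells, and Cox5a (chr9:57520982-57521281, plus strand) and Ndufb3 (chr1:58586147-58586446, plus strand), called in iTreg cells. Each is written 5′ to 3′ on the strand of its gene, with matched cores in capitals.
Cox7a1: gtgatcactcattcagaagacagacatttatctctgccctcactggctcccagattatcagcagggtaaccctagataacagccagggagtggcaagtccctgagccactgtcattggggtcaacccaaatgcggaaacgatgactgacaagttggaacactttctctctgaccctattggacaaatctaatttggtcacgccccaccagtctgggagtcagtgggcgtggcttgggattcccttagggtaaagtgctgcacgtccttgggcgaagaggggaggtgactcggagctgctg
Cox8a: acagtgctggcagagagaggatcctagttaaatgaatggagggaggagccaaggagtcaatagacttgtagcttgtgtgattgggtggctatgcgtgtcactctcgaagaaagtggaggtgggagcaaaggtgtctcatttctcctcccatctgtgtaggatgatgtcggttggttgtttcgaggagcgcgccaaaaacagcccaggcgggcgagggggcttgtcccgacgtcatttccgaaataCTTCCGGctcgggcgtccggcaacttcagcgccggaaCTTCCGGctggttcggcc
Cox5a: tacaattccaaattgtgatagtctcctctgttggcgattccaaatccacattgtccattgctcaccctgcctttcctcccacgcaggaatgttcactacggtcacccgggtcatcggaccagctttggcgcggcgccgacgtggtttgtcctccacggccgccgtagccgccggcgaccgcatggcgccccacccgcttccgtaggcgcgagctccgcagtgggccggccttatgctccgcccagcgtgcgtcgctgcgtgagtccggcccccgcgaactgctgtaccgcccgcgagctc
Ndufb3: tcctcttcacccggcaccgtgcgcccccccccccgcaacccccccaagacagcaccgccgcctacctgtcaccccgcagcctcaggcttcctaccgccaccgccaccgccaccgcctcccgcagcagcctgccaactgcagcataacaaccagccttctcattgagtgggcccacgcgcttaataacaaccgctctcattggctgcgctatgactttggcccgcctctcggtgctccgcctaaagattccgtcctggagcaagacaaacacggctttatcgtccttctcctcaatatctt
The Cox8a window held 2 matches to the ETS core, and the other 3 windows held no match to any of the 3 cores.

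Values are FPKM, reads per kilobase of gene scaled to the size of the library, and libraries are named by the beginning of their column heading (M22, M29, M42, or M43), which recurs once in each group. Its meaning was not stated in the labels or methods. Values of 4 libraries are given in that order throughout. Relative depth, read from the ratios of low values, was 0.843 to 1.08 times the median library in the Th17 table and 0.825 to 1.19 times in the iTreg table. All 5 T cell genes searched were listed, but their summed level was lower in every Th17 and iTreg library than in the Th0 library of the same heading beginning (848 to 1819 FPKM in Th0, 632 to 1174 FPKM in Th17, and 717 to 1214 FPKM in iTreg libraries). Among them, Cd4 fell in Th17 cells, from 283, 256, 81.3, and 209 FPKM to 87.4, 67.1, 33.8, and 84.1 FPKM (log2 fold change -1.54, SE 0.43, limma adjusted p 0.038). Il17f was at 0.0909 to 0.184 FPKM in Th0 and 281 to 788 FPKM in Th17 libraries, and Foxp3 at 2.01 to 7.15 FPKM in Th0 and 62.0 to 91.7 FPKM in iTreg libraries. The Th17 library M43 stood apart, with Foxp3 at 42.5 FPKM beside 0.499 to 4.50 FPKM in the other Th17 libraries. Of 5 myeloid markers, 2 were listed in the Th17 table (Cd68 and Itgam), with sums of 3.34 to 5.03 FPKM in Th0 and 5.58 to 16.5 FPKM in Th17 libraries, the highest in M22. In the iTreg table, Cd68 alone was listed, at 3.19 to 4.85 FPKM in Th0 and 2.61 to 7.19 FPKM in iTreg libraries. Of 4 B cell and 2 CD8 T cell markers, 1 each was listed, with overlapping groups: Cd79a at 0.646 to 3.84 FPKM in Th0, 0.586 to 2.49 FPKM in Th17, and 0.505 to 2.0 FPKM in iTreg libraries, and Cd8b1 at 2.52 to 6.60, 3.22 to 5.88, and 2.19 to 5.52 FPKM. The part of these markers in the results below was not tested. The myeloid genes Lyz2, Csf1r, and Cd14 and all NK and red cell genes searched were not listed. In mRNA from whole cultures, fewer cells of a type and less RNA per cell cannot be told apart.

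Within each complex, subunit genes had unequal FPKM in Th0 cells, although most subunits enter their complex in equal number. FPKM is a level per length, but the annotation that gave the lengths is not known. Some genes also share exonic bases with others, such as Ndufb6 (39.0%) and Ndufa13 (30.0%) in GENCODE M21. The order of genes in FPKM is thus only a rough guide to the order of their mRNA levels. Complex II had the narrowest range, from Sdhb at 92.0 ± 19.1 FPKM (mean ± SD, n = 4) to Sdhc at 69.9 ± 10.0 FPKM, and these neighbours in the order Sdhb, Sdha, Sdhd, Sdhc differed by less than their spread. In complex I, the median subunit was at 69.7 FPKM, Ndufa4 the highest at 209.9 ± 27.0 FPKM, and Ndufa11, an accessory subunit of the membrane arm, the lowest at 15.4 ± 2.87 FPKM. The hinge protein gene Uqcrh was the highest of complex III at 347 ± 36.1 FPKM and the Rieske iron-sulfur protein gene Uqcrfs1 the lowest at 77.2 ± 16.8 FPKM. In complex IV, Cox4i1 led at 327 ± 26.9 FPKM. Complex V held the most abundant gene of all, Atp5b for the catalytic β subunit, at 589.8 ± 132 FPKM, above Atp5g3 at 404 ± 62.5 FPKM, one of 3 genes for the proton-carrying c subunit. The 76 subunit genes together made up 1.91% of all FPKM listed in Th0 and 1.76% in Th17 libraries, and, in the iTreg table, the 74 listed made up 1.91% in Th0 and 1.95% in iTreg libraries.

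In Th17 cells, the summed mRNA of each complex overlapped that of Th0 cells. The sum over all 76 subunit genes was 8966, 8989.7, 11081, and 10999 FPKM in the 4 Th0 libraries and 8177, 9199, 11123, and 8927 FPKM in the 4 Th17 libraries. Th0 libraries M42 and M43 and Th17 library M42 were the high ones, and both groups covered nearly the same range. The ratio of the mean sums of Th17 to Th0 was 0.935 for all subunits, 1.00 for complex I, 1.05 for complex II, 0.911 for complex III, 0.910 for complex IV, and 0.897 for complex V. The plot of summed FPKM by library shows that the gap between Th0 libraries M22 and M42 exceeded the gap between the means of the groups in every complex.

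**Figure D1:**
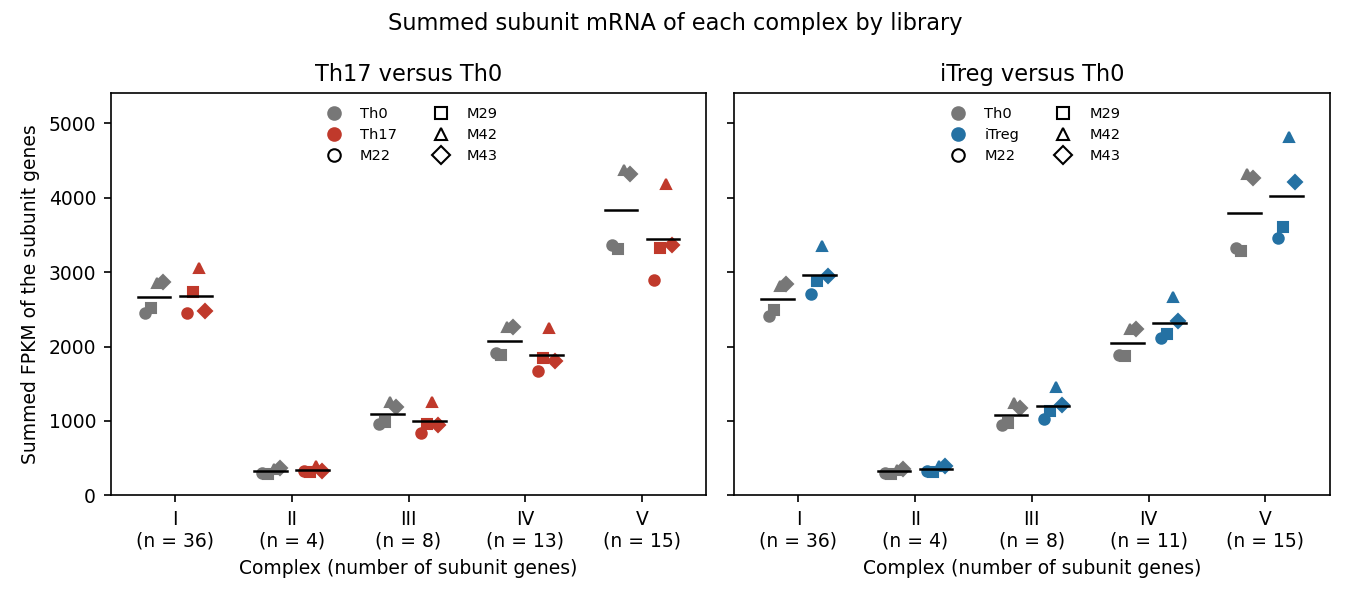
Summed FPKM of the subunit genes of each complex (y axis) in each library, for Th17 (left, red) and iTreg cells (right, blue) beside Th0 cells (gray), with shapes for the heading beginning and bars for group means. The groups overlap in every complex, and libraries M42 lie at or near the top of their group.

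The median log2 fold change of the 76 subunits in Th17 over Th0 was -0.09, beside -0.00071 over all 10269 genes tested. It was -0.02 for complex I, 0.02 for complex II, -0.09 for complex III, -0.17 for complex IV, and -0.17 for complex V. Median centring moved every gene by the same amount, which took the median of all genes to -0.04 and that of complex II below 0, to -0.01, still above all genes. Quantile normalization brought the median of all subunits to -0.03 (all genes -0.01), complex III to -0.03, complex IV to -0.12, and complex V to -0.11. Within the heading beginnings, the subunit median was -0.12 in M22, 0.05 in M29, -0.02 in M42, and -0.29 in M43, so its sign was not the same in all 4. Without Th17 library M43 it was -0.05, and without M22 -0.03, where the complex I median turned to 0.05.

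The genes called singly in Th17 cells coded for subunits of complex IV and for assembly factors. Of the 90 genes, 3 rose in Th17 cells (3.33%, where 10.6% of all genes tested rose) and 3 fell (3.33%, where 8.69% of all genes tested fell), by limma at an FDR of 0.05. Both shares lie below those of all genes. At an unadjusted p under 0.05, 6 were higher (background 16.7%) and 7 lower (background 15.6%), and limma-trend, which ties the variance to the level, called 3 higher (background 10.5%) and 3 lower (background 8.84%). Without Th17 library M43, 2 rose and 1 fell, and without M22, 1 rose and 0 fell. Over all 8 libraries left out in turn, 1 to 2 rose and 0 to 6 fell, with 0 falls also without Th0 library M42 or M43 or Th17 library M29 and 6 without Th17 library M42. With the heading beginning as a term of the fit, 5 rose (background 19.2%) and 8 fell (background 18.6%). The libraries of Th17 and Th0 did not overlap for 3 genes on the higher side (background 13.2%) and 3 on the lower (background 10.6%).

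The genes that rose in complex IV were Cox7a1 and Cox6a2, which code for the isoforms of subunits VIIa and VIa found in heart and skeletal muscle. Both were listed only beside the Th17 libraries, so the listing itself favoured genes high there. Cox7a1 was at 1.09, 2.78, 1.18, and 1.76 FPKM in Th0 and 5.69, 4.25, 3.74, and 3.64 FPKM in Th17 libraries. Every Th17 library lay above every Th0 library (4.33 ± 0.946 against 1.70 ± 0.777 FPKM, mean ± SD, n = 4 each, log2 fold change 1.01, SE 0.21, limma adjusted p 0.0098, exact permutation p 0.029, the smallest that 70 arrangements allow). Its call held under all 15 settings tried, with adjusted p from 0.0027 to 0.032. No setting could restore rows that the authors had left out before listing. Cox6a2 was at 2.03, 1.16, 0.164, and 0.325 FPKM in Th0 and 4.09, 2.99, 2.60, and 1.69 FPKM in Th17 libraries, a rise within each heading beginning but with Th17 library M43 below Th0 library M22 (log2 fold change 1.07, SE 0.32, limma adjusted p 0.046). With a pseudocount of 0.1 in place of 1, its log2 fold change was 1.92 and the call was lost (adjusted p 0.069). Its adjusted p was 0.0023 to 0.13 over the settings tried and crossed the threshold when Th0 library M29, M42, or M43 or Th17 library M22, M29, or M42 was left out. Both genes were among the least abundant of complex IV, and 10.3% of the exonic bases of Cox6a2 are shared with Itgad, an integrin gene known from myeloid cells. The myeloid marker sum given above was also higher in the Th17 libraries, and its part in these rises was not tested.

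The other rise was in Atp5sl, at 13.4, 15.0, 10.3, and 9.14 FPKM in Th0 and 26.4, 17.1, 17.6, and 18.8 FPKM in Th17 libraries. The groups did not overlap, and M22 was the highest Th17 library (log2 fold change 0.70, SE 0.19, limma adjusted p 0.032, and 0.0099 with the heading beginning as a term). Over the settings tried its adjusted p was 0.0099 to 0.088, and leaving out Th0 library M22, M42, or M43 or Th17 library M22 or M43 ended the call.

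One subunit gene fell. Cox8a, for the small ubiquitous subunit VIII of cytochrome c oxidase, was at 244, 214, 279, and 276 FPKM in Th0 and 169, 191, 208, and 188 FPKM in Th17 libraries. All Th17 libraries lay below all Th0 libraries, though Th17 M42 came close to Th0 M29 (log2 fold change -0.42, SE 0.12, limma adjusted p 0.041). Median centring ended the call, as did leaving out Th0 library M22, M42, or M43 or Th17 library M22, M29, or M43, with adjusted p from 0.015 to 0.12.

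The other 2 genes that fell code for assembly factors. Sdhaf1, which helps to load iron-sulfur clusters into complex II, was at 26.9, 32.3, 37.8, and 36.4 FPKM in Th0 and 20.1, 17.6, 25.9, and 26.2 FPKM in Th17 libraries without overlap (log2 fold change -0.56, SE 0.16, limma adjusted p 0.044). Ndufaf2, which acts late in complex I assembly, was at 26.5, 19.5, 26.9, and 21.1 FPKM in Th0 and 15.1, 15.9, 19.8, and 14.7 FPKM in Th17 libraries, with Th17 M42 just above the lowest Th0 library (log2 fold change -0.49, SE 0.14, limma adjusted p 0.044). Both values are uncertain: counting was without strand, and 69.6% of the exonic bases of Sdhaf1 are shared with E130208F15Rik and 65.6% of those of Ndufaf2 with B230220B15Rik in GENCODE M21. The Sdhaf1 call was lost without Th0 library M29, M42, or M43 or Th17 library M22 or M29 and with a pseudocount of 0.1 (adjusted p 0.051), and the Ndufaf2 call without Th0 library M22, M42, or M43 or Th17 library M22, M29, or M43. Ndufaf1, for another complex I assembly factor, was also lower in every Th17 than in every Th0 library, at 13.1, 13.8, 13.3, and 14 FPKM in Th0 and 11.5, 10.8, 12.3, and 11.5 FPKM in Th17 libraries, but missed the threshold (adjusted p 0.12).

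**Figure D2:**
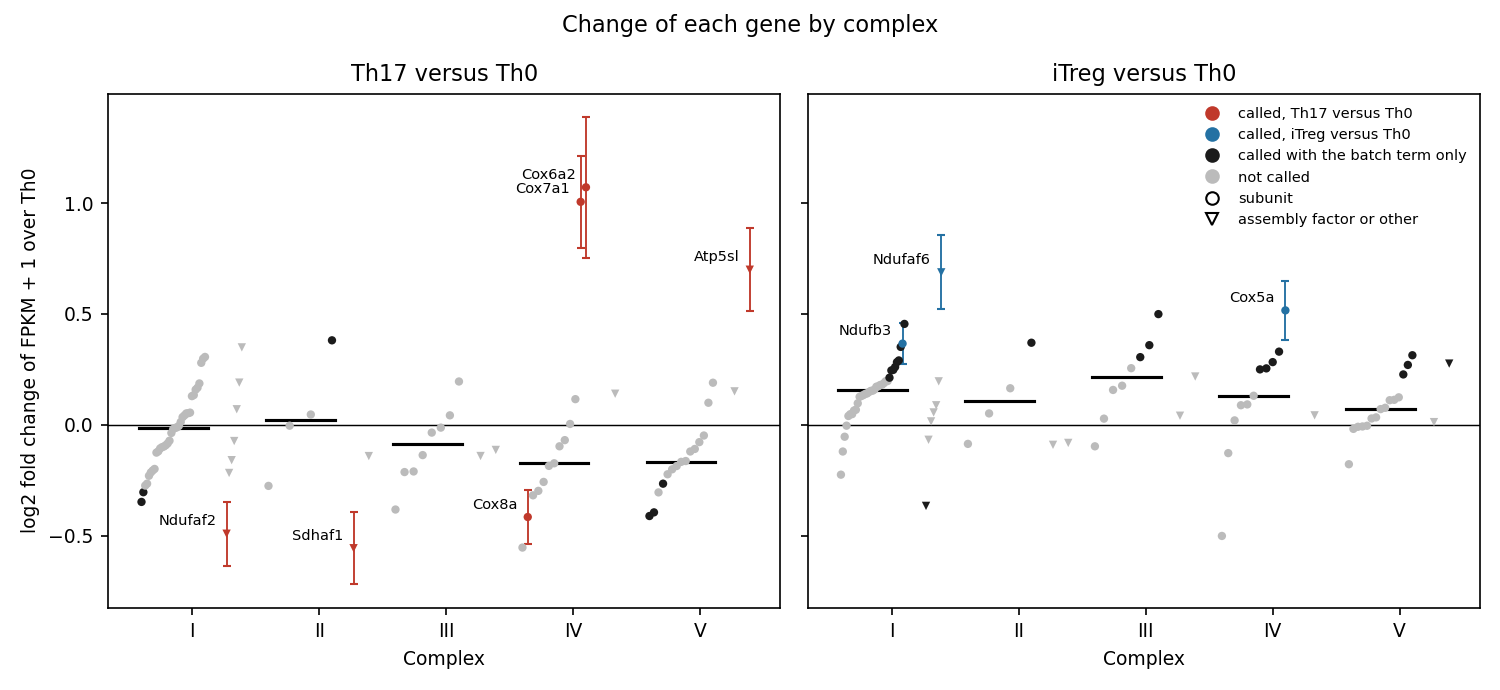
Log2 fold change of FPKM + 1 over Th0 (y axis) for each gene reported, by complex, in Th17 (left) and iTreg cells (right). Circles are subunits and triangles assembly factors or others, called genes are colored and named with bars of 1 SE, black genes were called only with the heading beginning as a term, and lines are subunit medians, which lie between -0.17 and 0.02 in Th17 cells and above 0 in every complex in iTreg cells.

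Of the remaining genes, 2 rose and 5 fell in Th17 cells only when the heading beginning was a term of the fit. Those that fell, with their log2 fold changes, were Atp5g3 -0.41 (SE 0.10, adjusted p 0.017), Atp5j, for coupling factor 6 of the peripheral stalk, -0.39 (SE 0.10, adjusted p 0.02), and Atp5c1, for the rotating γ subunit, -0.27 (SE 0.08, adjusted p 0.043). The complex I genes Ndufa5 and Ndufab1, the second coding for the mitochondrial acyl carrier protein, had -0.35 (SE 0.10, adjusted p 0.035) and -0.30 (SE 0.09, adjusted p 0.04). Sdhb, for the iron-sulfur subunit of complex II, rose with the term, by 0.38 (SE 0.12, adjusted p 0.041). It was at 72.7, 79.6, 113, and 102 FPKM in Th0 and 115, 104, 157, and 104 FPKM in Th17 libraries, which overlapped.

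Core and catalytic subunits named here did not pass in Th17 cells without the term. Ndufs1, for the largest core subunit of complex I, was at 26.2 to 29.4 FPKM in Th0 and 24.7 to 28.4 FPKM in Th17 libraries, with a log2 difference of -0.02 (SE 0.09, adjusted p 0.91). The log2 fold change of Ndufv1, for the NADH-binding subunit, was -0.04 (SE 0.11, adjusted p 0.86), and that of its partner Ndufv2 0.17 (SE 0.15, adjusted p 0.49). In complex II, the flavoprotein gene Sdha had a log2 fold change of -0.0040 (SE 0.15, adjusted p 0.99) and the membrane anchors Sdhc and Sdhd 0.05 (SE 0.13, adjusted p 0.84) and -0.28 (SE 0.19, adjusted p 0.35). The core protein genes Uqcrc1 and Uqcrc2 of complex III had log2 fold changes of -0.14 (SE 0.10, adjusted p 0.41) and -0.04 (SE 0.12, adjusted p 0.87), and Uqcrfs1 0.04 (SE 0.21, adjusted p 0.91). In complex IV, Cox4i1 had 0.12 (SE 0.11, adjusted p 0.51) and Cox5b -0.10 (SE 0.16, adjusted p 0.72). In complex V, the catalytic head genes Atp5a1 and Atp5b had log2 fold changes of -0.16 (SE 0.15, adjusted p 0.49) and -0.12 (SE 0.19, adjusted p 0.71). Libraries of both groups overlapped for each of these genes, and a missed threshold does not show that they were equal.

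In iTreg cells, compared with the same 4 Th0 cultures, most subunit genes had higher mean levels, by small amounts. The sum over 74 subunit genes was 8857, 8907, 10947, and 10865 FPKM in Th0 and 9622, 10089, 12665, and 11090.0 FPKM in iTreg libraries. iTreg library M42 was the highest of the 8, and iTreg M22 and M29 lay below Th0 M42 and M43, so the groups overlapped. The ratio of mean sums was 1.10 over all subunits, 1.12 for complex I, 1.10 for complex II, 1.11 for complex III, 1.13 for complex IV, and 1.06 for complex V. As a share of all FPKM listed, the change was smaller, from 1.91% in Th0 to 1.95% in iTreg libraries over all subunits. The share of complex V was lower in iTreg libraries, at 0.720% beside 0.732% in Th0, while those of complexes I, II, III, and IV were higher. Within heading beginnings, the ratio over all subunits was 1.09 in M22, 1.13 in M29, 1.16 in M42, and 1.02 in M43, above 1 in all 4. Complex V alone had a ratio below 1 in a heading beginning, at 0.988 in M43. The Th17 ratios over all subunits, against the same Th0 libraries, were 0.912, 1.02, 1.00, and 0.812. Th17 and iTreg values were not tested against each other, since the tables had been scaled separately.

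The subunit median of the iTreg fold changes was 0.14 on the log2 scale, beside 0.01 over all 10208 genes tested. It was 0.16 for complex I, 0.11 for complex II, 0.22 for complex III, 0.13 for complex IV, and 0.07 for complex V. Quantile normalization left it above 0 in each complex but lowered the median of all subunits to 0.09 (all genes -0.01), that of complex IV to 0.04, and that of complex V to 0.0075. Subunit genes are short, with a median of 1675 exonic bases beside 4453 over the genes tested in the iTreg table. Only 19 of the 90 genes taken by the rule were under 1000 exonic bases, so a set under that length is shorter than most of them. In such a set, 241 other genes had a median log2 fold change of 0.07 in iTreg cells, and 240 had -0.04 in Th17 cells. The part of gene length in the medians was not tested.

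By limma, 4 of 88 genes rose in iTreg cells (4.55%, where 8.36% of all genes tested rose) and 0 fell, where 8.21% of all genes tested fell. At an unadjusted limma p under 0.05, 10 were higher (background 15.3%) and 1 lower (background 14.8%), and limma-trend called 5 higher (background 8.48%) and 0 lower (background 8.16%). With 1 library left out in turn, 0 to 3 rose, with 0 rises without iTreg library M22, M42, or M43, and 0 to 1 fell, with 1 without Th0 library M29. With the heading beginning as a term, 24 rose (27.3%, background 20.9%) and 1 fell (1.14%, background 20.0%). In all 4 heading beginnings, 39 genes were higher (background 29.1%) and 5 lower (background 27.4%). The same counts in Th17 cells were 9 higher (background 28.4%) and 24 lower (background 26.9%), against the same Th0 libraries.

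Cox5a, for a subunit that faces the matrix and helps to hold the catalytic core of complex IV, had the largest subunit change in iTreg cells among called genes. It was at 161, 145, 200.2, and 181 FPKM in Th0 and 235, 221, 291, and 236 FPKM in iTreg libraries. All iTreg libraries lay above all Th0 libraries (246 ± 31.0 against 172 ± 24.1 FPKM, mean ± SD, n = 4 each, log2 fold change 0.52, SE 0.13, limma adjusted p 0.031, exact permutation p 0.029). The gene Gm26631 overlaps 12.8% of the exonic bases of Cox5a. In Th17 cells its log2 fold change was -0.19 (SE 0.17, adjusted p 0.49).

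The complex I gene Ndufb3, for an accessory subunit of the membrane arm, rose as well. It was at 73.2, 62.9, 63.6, and 61.3 FPKM in Th0 and 82.5, 79.1, 87.6, and 87.8 FPKM in iTreg libraries. The groups did not overlap, and the Th0 library M22 was the nearest to the iTreg libraries (log2 fold change 0.37, SE 0.09, limma adjusted p 0.028).

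The largest fold change was in Ndufaf6, an assembly factor of complex I, at 6.58, 3.85, 6.12, and 7.33 FPKM in Th0 and 10.7, 8.98, 9.74, and 10.7 FPKM in iTreg libraries. The groups did not overlap, and Th0 library M29 was the lowest (log2 fold change 0.69, SE 0.17, limma adjusted p 0.024). In Th17 libraries it was at 6.23, 6.04, 9.70, and 9.96 FPKM, overlapping Th0 (adjusted p 0.31). Median centring ended the call of Cox5a, quantile normalization that of Ndufb3, and leaving out iTreg library M22, M42, or M43 ended those of Cox5a, Ndufb3, and Ndufaf6. Leaving out Th0 library M22, M29, or M43 also ended the call of Cox5a and Th0 library M29, M42, or M43 that of Ndufb3, while adjusted p over the settings reached 0.072 for Ndufaf6, 0.082 for Cox5a, and 0.079 for Ndufb3.

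**Figure D3:**
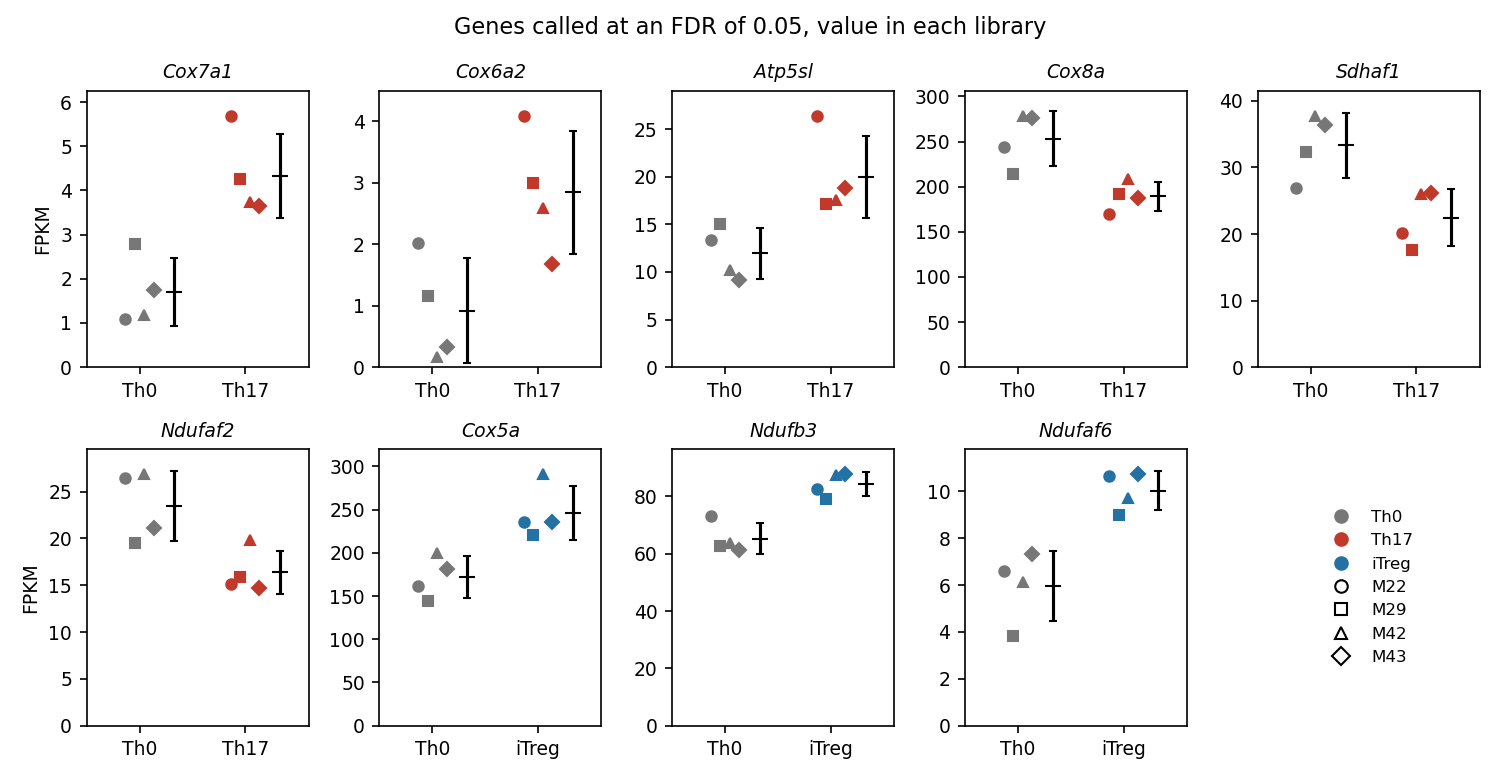
FPKM (y axis, from 0) of 9 genes called at an FDR of 0.05 in each library, for Th0 (gray), Th17 (red), and iTreg cells (blue), with shapes for the heading beginning and bars for mean ± SD of 4 libraries. In the comparison that called them, the groups separate for all but Cox6a2 and Ndufaf2.

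The 20 genes that rose in iTreg cells only with the heading beginning as a term came from all 5 complexes, with log2 fold changes of 0.21 to 0.50. In complex III they were Uqcr11 0.50 (SE 0.12, adjusted p 0.016), Uqcrq, and Uqcrfs1, and in complex II Sdhb 0.37 (SE 0.07, adjusted p 0.0059). Uqcrfs1 was at 61.9, 63.5, 96.0, and 83.9 FPKM in Th0 and 76.0, 81.1, 124, and 114 FPKM in iTreg libraries, a wide overlap with differences of 0.29, 0.35, 0.36, and 0.43 on the log2 scale within the 4 heading beginnings. Its adjusted p went from 0.29 to 0.0052 once the heading beginning was in the fit. Complex IV added Cox4i1 0.33 (SE 0.08, adjusted p 0.019), Cox7b, Cox7a2, and Cox6a1, and complex V added Atp5d, for the δ subunit of the central stalk, 0.31 (SE 0.08, adjusted p 0.018), Atp5g1, Atp5b, and Atp5sl. Complex I added Ndufb2, Ndufb4, Ndufa1, Ndufa12, Ndufa10, Ndufb8, Ndufa8, and Ndufc2. The gene that fell was again Ndufaf2, at 20.2, 14.4, 21.9, and 15.1 FPKM in iTreg libraries beside 26.2, 19.3, 26.5, and 20.9 FPKM in Th0, with a log2 fold change of -0.37 (SE 0.07, adjusted p 0.0053). Cox4i1, Ndufa1, Ndufa8, and Ndufs1 were also higher in every iTreg than in every Th0 library. In all, 8 of 88 genes lay above Th0 without overlap (background 11.7%) and 0 below (background 11.0%).

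Of the core and catalytic subunits in iTreg cells, those that passed neither fit are given by their log2 fold changes without the heading term. Sdha had a log2 fold change of -0.09 (SE 0.17, adjusted p 0.79), Sdhc 0.05 (SE 0.14, adjusted p 0.85), and Sdhd 0.16 (SE 0.18, adjusted p 0.6). Ndufv1 and Ndufv2 had log2 fold changes of 0.18 (SE 0.11, adjusted p 0.33) and 0.05 (SE 0.15, adjusted p 0.87), and Ndufs1 0.15 (SE 0.08, adjusted p 0.25). The catalytic head gene Atp5a1 had -0.0043 (SE 0.15, adjusted p 0.99) and Atp5c1 -0.01 (SE 0.16, adjusted p 0.98). In complex III, Uqcrc1 had 0.03 (SE 0.12, adjusted p 0.91) and Uqcrc2 0.16 (SE 0.12, adjusted p 0.43), and in complex IV, Cox5b, which binds zinc on the matrix side, had 0.13 (SE 0.12, adjusted p 0.53).

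Several subunits exist as paralogs, and the share of a paralog in its family does not depend on how a library was scaled. The c subunit of the ATP synthase rotor is made from 3 genes, Atp5g1, Atp5g2, and Atp5g3, whose mature proteins are the same. Atp5g3 supplied 46.3, 43.7, 44.9, and 45.6% of their summed FPKM in Th0 and 39.1, 39.5, 40.8, and 42.3% in Th17 libraries, while Atp5g2 supplied 40.4, 42.8, 41.0, and 40.7% and 48.4, 45.0, 44.9, and 44.1%. Neither share overlapped between groups, with Atp5g3 at 45.1% ± 1.14 in Th0 and 40.4% ± 1.46 in Th17 cells. Atp5g2 had the higher FPKM of the pair in every Th17 library. In iTreg cells the share of Atp5g1 was above that of every Th0 library, at 14.6, 16.5, 15.9, and 16.7% beside 13.2, 13.5, 14.1, and 13.6%, and the shares of Atp5g2 and Atp5g3 overlapped with Th0. These shares were not tested, being sums over genes chosen with results known.

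**Figure D4:**
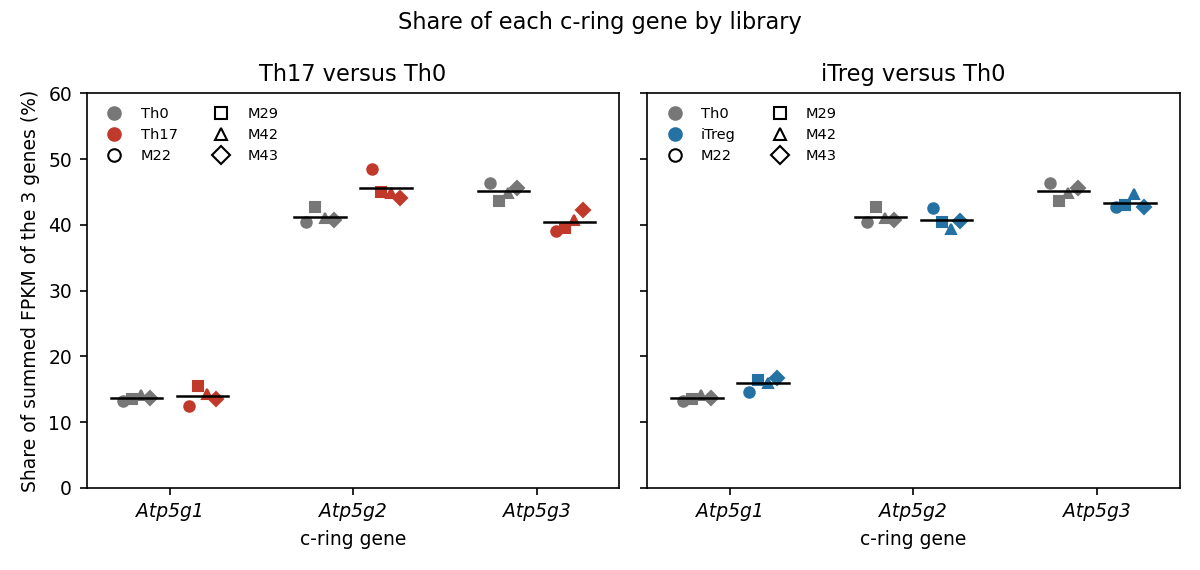
Share of each c-subunit gene in the summed FPKM of Atp5g1, Atp5g2, and Atp5g3 (y axis, %), by library, for Th17 (left, red) and iTreg cells (right, blue) beside Th0 cells (gray), with bars for group means. Atp5g2 and Atp5g3 change places between Th0 and Th17 libraries, and Atp5g1 is higher in all 4 iTreg libraries.

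For the muscle isoforms, Cox7a1 was 0.460% ± 0.211 of the summed FPKM of Cox7a1, Cox7a2, and Cox7a2l in Th0 and 1.17% ± 0.363 in Th17 cells, and Cox6a2 was 0.443% ± 0.425 of Cox6a1 and Cox6a2 in Th0 and 1.30% ± 0.496 in Th17 cells. Even where they rose, these isoforms stayed a small share of their families. Cox6b2, the testis isoform of subunit VIb, was 2.47% ± 1.34 of its pair in Th0 and was at 1.65 to 9.52 FPKM there. Cox7a2l, counted here with the other genes and not as a subunit, was at 234 to 275 FPKM in Th0, 262 to 309.8 FPKM in Th17, and 231 to 295 FPKM in iTreg libraries. The paralogs Cox4i2, Cox7b2, Cox8b, Cox8c, and Ndufa4l2 were not listed in either table.

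Across libraries, most subunit genes were high or low together, and this spread was larger than the difference between groups. Measured against the mean of 8 libraries in the Th17 table, the median subunit deviated by -0.09, -0.09, 0.20, and 0.17 on the log2 scale in Th0 libraries and by -0.23, -0.03, 0.22, and -0.10 in Th17 libraries. In Th17 library M42, 93.4% of subunits were above their mean, and in Th17 library M22 13.2%. In the iTreg table, the deviations were -0.18, -0.22, 0.09, and 0.07 in Th0 and -0.10, 0.0034, 0.28, and 0.09 in iTreg libraries. Exceptions included Sdha, which was lowest in the M42 library of each group, and Ndufa6, which was at its lowest level there or in M43. The summed T cell markers were also lowest in M42 libraries, at 848 FPKM in Th0 M42 beside 1459 to 1819 FPKM in the other Th0 libraries, and whether this bears on the subunits was not tested.

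**Figure D5:**
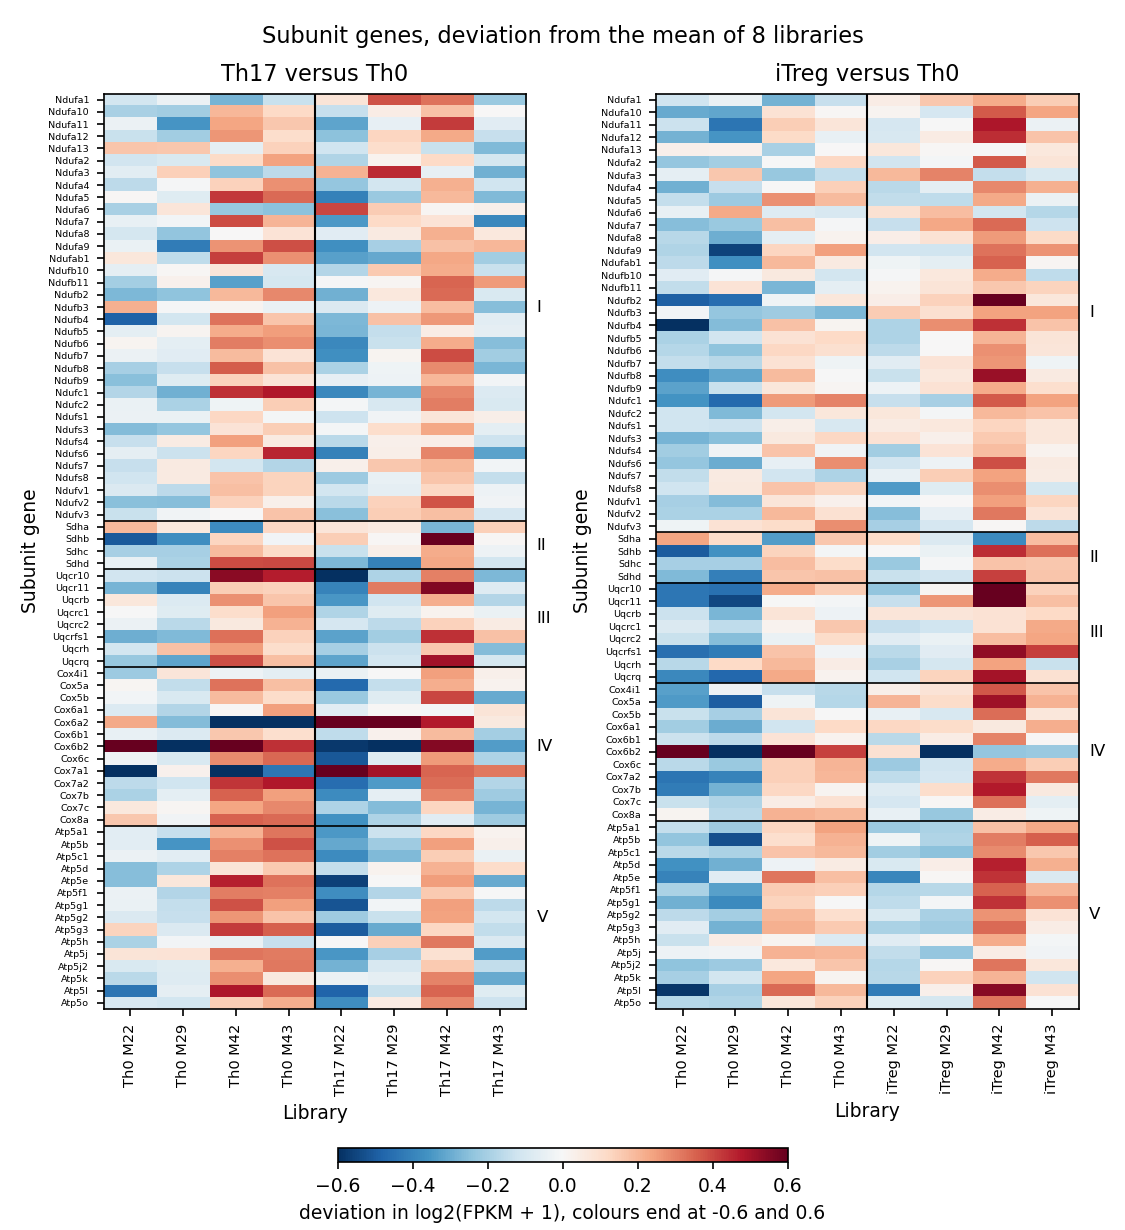
Deviation of each subunit gene from its mean over 8 libraries, in log2(FPKM + 1) (color, red above and blue below, ending at -0.6 and 0.6), with genes in rows by complex and libraries in columns, for the Th17 (left) and iTreg tables (right). Columns of M42 are mostly red in every group, and those of M22 and M29 mostly blue in Th0.

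Among genes that work beside the complexes, 31 of 32 further assembly factors were listed and 30 tested in Th17 cells. Pet100, which acts in complex IV assembly, rose (log2 fold change 0.64, SE 0.17, limma adjusted p 0.033), the only one of these (3.33%, background 10.6%). In iTreg cells Cox19, a factor for complex IV assembly, was the only one of 30 tested that rose (log2 fold change 0.48, SE 0.13, limma adjusted p 0.04), where the background is 8.36%. Without the heading term, 0 of the 30 fell in either comparison by limma (background 8.69% in Th17 and 8.21% in iTreg cells), and 2 in Th17 and 0 in iTreg cells were lower at an unadjusted p under 0.05 (background 15.6% and 14.8%), beside 2 higher in each (background 16.7% and 15.3%). With the term, 2 rose and 1 fell in Th17 cells (Acad9 and Pet100, and Tmem70), and 2 rose and 1 fell in iTreg cells (Cox17 and Cox19, and Tmem126b). The background with the term is 19.2% for rises and 18.6% for falls in Th17 cells, and 20.9% and 20.0% in iTreg cells. Of 19 electron and nucleotide carriers, Etfa and Etfb, the subunits of the flavoprotein that brings electrons from fatty acid oxidation to ubiquinone, fell in Th17 cells, and Etfa alone in iTreg cells. These are 10.5% of the carriers in Th17 cells, where 8.69% of all genes tested fell, and 1 of 19 in iTreg cells, where 8.21% fell. Etfa was at 66.9, 58.4, 72.6, and 62.1 FPKM in Th0, 33.0, 42.1, 51.0, and 36.6 FPKM in Th17, and 47.1, 43.8, 54.0, and 48.4 FPKM in iTreg libraries, below every Th0 library in both polarized groups (log2 fold change -0.68, SE 0.15, limma adjusted p 0.013 in Th17, and log2 fold change -0.40, SE 0.11, limma adjusted p 0.032 in iTreg cells). Etfb was at 64.8, 39.2, 74.1, and 75.6 FPKM in Th0 and 26.0, 29.3, 46.0, and 32.1 FPKM in Th17 libraries, which overlapped (log2 fold change -0.89, SE 0.24, limma adjusted p 0.033). With the heading term, 6 of the 19 carriers fell in Th17 cells (Etfa, Etfb, Cycs, and the ubiquinone synthesis genes Coq2, Coq6, and Coq7) and 1 rose (Coq4), where the background is 18.6% and 19.2%. In iTreg cells, 5 rose with it (Cyc1, Coq3, Coq4, the ADP/ATP carrier gene Slc25a4, and the ATP synthase inhibitor gene Atpif1) and 1 fell (Etfa), where the background is 20.9% and 20.0%. Cycs, for cytochrome c, and Cyc1, for cytochrome c1 of complex III, did not pass without the heading term, with -0.35 (SE 0.20, adjusted p 0.27) for Cycs in Th17 and 0.33 (SE 0.12, adjusted p 0.085) for Cyc1 in iTreg cells.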

How the data were processed

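RNA had been sequenced from 4 Th0, 4 Th17, and 4 iTreg cultures. The authors mapped reads to mm10 with TopHat2 2.0.14, counted them on exons with HTSeq in union mode without strand, and tested counts with edgeR in a design the methods call pair-wise, without saying which libraries were paired. The annotation was not given in the sources used here. From this the authors deposited 2 tables with FPKM per library, scaled separately (Th0 values in the iTreg table are 0.988 to 0.991 times those of the Th17 table), beside their own fold changes, p-values, and FDR, which were not used. Counts are not in the tables, so no counting intervals are given, and depth is known only as a ratio.

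Genes above 1 FPKM in 4 or more of 8 libraries were tested on log2(FPKM + 1) over the whole table with limma 3.58.1 in R 4.3.3, two-sided, p-values being adjusted after Benjamini and Hochberg and called at 0.05. Fold changes on this scale understate those of low genes. All p-values measure the spread between these cultures. Column headings show the group but not the experiment number of the labels, so the main comparison was made without pairs. Libraries with the same heading beginning deviated from their group means together. Their correlations across genes were 0.450 to 0.784 in the Th17 and 0.662 to 0.769 in the iTreg table. Those of libraries with different beginnings were -0.590 to 0.434 and -0.576 to 0.248, so the gap was narrow in the Th17 table. For this reason a fit with the beginning as a block pairs them beside the results. Exact permutation tests had 70 arrangements. Sums over a complex were not tested. The script was tested on simulated data. Exonic overlaps came from GENCODE M21, in which 89 of 90 genes were found, and promoters from RefSeq. Tallies used Python 3.11.15 and pandas 2.3.3. Genes were named by a fixed rule: those called (at most 12 per direction and comparison), the catalytic and core subunits, paralog families, the most abundant subunit of each complex, and at most 3 called genes per further list and comparison. Other genes named, among them those called only with the heading term, were chosen after their values were seen. The members and lists were chosen with earlier results of these data known. The values of 2 genes, which are included in the counts, sums, and medians, are not reported here.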

Additional observations from a re-analysis of the deposited data

How the results depend on the processing

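The experiment number of the labels is not in the column headings, so the heading beginning, whose meaning the labels do not give, served as the replicate block. In that paired fit, 5 genes rose and 8 fell in Th17 cells, in place of 3 and 3, and 24 rose and 1 fell in iTreg cells, in place of 4 and 0. At an FDR of 0.01, 1 rose and 0 fell in Th17 and 0 rose in iTreg cells, and with median centring 2 rose in iTreg cells. Leaving out 1 library gave 1 to 2 rises and 0 to 6 falls in Th17 and 0 to 3 rises and 0 to 1 falls in iTreg cells. The 6 falls came without Th17 library M42, the only library whose removal added Th17 falls. With a pseudocount of 0.1, the calls of Cox6a2 and Sdhaf1 were lost, leaving 2 rises and 2 falls in Th17 cells. Of the genes called, Cox7a1 alone passed in all 15 settings, none of which undoes its listing in the Th17 table only. Except for the stricter FDR, the cause of these moves was not tested.

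Fold changes near 0 that passed no test changed sign. Under quantile normalization, the log2 fold changes in Th17 cells of Cox6b1, Sdha, and Uqcrc2 became 0.00381, 0.0355, and 0.0184, and those in iTreg cells of Ndufv2 and Uqcrc1 -0.00309 and -0.0216. Median centring, which moved all Th17 fold changes down alike, took that of Cox6a1 to -0.0324, a flip that the shift itself makes. With 1 library left out, they ranged in Th17 cells for Cox6a1 from -0.0544 to 0.0858, Ndufs1 from -0.0462 to 0.0193, Ndufv1 from -0.0948 to 0.0175, Sdha from -0.130 to 0.0865, Sdhc from -0.0209 to 0.117, Uqcrc2 from -0.0956 to 0.0286, and Uqcrfs1 from -0.0959 to 0.160, and in iTreg cells for Atp5a1 from -0.0809 to 0.0749, Atp5c1 from -0.103 to 0.0737, Atp5g2 from -0.0507 to 0.104, Atp5g3 from -0.124 to 0.0613, Cox7a2l from -0.0202 to 0.0971, Ndufv2 from -0.0489 to 0.141, Sdha from -0.212 to 0.0272, Sdhc from -0.00723 to 0.134, and Uqcrc1 from -0.0436 to 0.0867. Depth is known only as a ratio between libraries, so the reads behind low genes such as Cox6a2 and Cox7a1 are not known.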

Other observations

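Among genes that act on the transcription of respiratory genes or on mitochondrial DNA, several differed from Th0 in Th17 cells. Of 15 tested, 3 rose and 2 fell by limma at an FDR of 0.05 in Th17 cells (over all genes tested, 10.6% rose and 8.69% fell), and with the heading beginning as a term 4 rose and 3 fell (19.2% and 18.6% over all genes), Polrmt and Nrf1 being added. Tfam, which packages mitochondrial DNA and starts its transcription, was at 20.4, 22.6, 23.1, and 21.7 FPKM in Th0, 13.1, 16.6, 18.4, and 16.2 FPKM in Th17, and 13.3, 14.3, 16.3, and 16.3 FPKM in iTreg libraries. It lay below every Th0 library in both polarized groups (log2 fold change -0.43, SE 0.12, limma adjusted p 0.033 in Th17, and log2 fold change -0.51, SE 0.10, limma adjusted p 0.0093 in iTreg cells). Tfb1m, a mitochondrial rRNA methyltransferase, fell in Th17 cells (log2 fold change -0.69, SE 0.20, limma adjusted p 0.041), while the mitochondrial DNA polymerase gene Polg (log2 fold change 0.52, SE 0.14, limma adjusted p 0.034) and the coactivator gene Ppargc1b (log2 fold change 0.47, SE 0.13, limma adjusted p 0.035) rose, as did Peo1, for the mitochondrial DNA helicase (log2 fold change 0.41, SE 0.12, limma adjusted p 0.05). In iTreg cells, 1 of these 15 rose and 2 fell, Tfam among them (over all genes tested, 8.36% and 8.21%), and with the term 3 rose, Polg and Peo1 being added, and 2 fell. Myc was at 60.9, 42.7, 76.1, and 74.1 FPKM in Th0 and 145, 137, 118, and 119.6 FPKM in iTreg libraries without overlap (log2 fold change 1.05, SE 0.18, limma adjusted p 0.0055), and Gabpb2, for a subunit of GABP, fell (log2 fold change -0.38, SE 0.11, limma adjusted p 0.04).

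In the tricarboxylic acid cycle, which supplies complexes I and II with electrons, 1 of 16 genes fell in Th17 cells (over all genes tested, 8.69% fell), and 2 rose in iTreg cells (over all genes tested, 8.36% rose). Fh1, for fumarate hydratase, the enzyme that follows complex II in the cycle, was at 50.9, 46.7, 62.4, and 68.6 FPKM in Th0 and 27.3, 30.8, 39.9, and 32.8 FPKM in Th17 libraries, a fall without overlap (log2 fold change -0.78, SE 0.16, limma adjusted p 0.0096). In iTreg cells, Suclg2, for the GTP-forming subunit of succinyl-CoA ligase, and Pdha1, for a subunit of pyruvate dehydrogenase, rose (log2 fold change 0.61, SE 0.11, limma adjusted p 0.0078, and log2 fold change 0.61, SE 0.14, limma adjusted p 0.02). With the heading beginning as a term, Fh1 fell in iTreg cells too, with a log2 fold change of -0.38 (SE 0.06, adjusted p 0.0035). Both comparisons share the Th0 libraries.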
